A study of Mus musculus with 12 samples.

Results

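The genes described here encode the proteins of the mitochondrial ribosome, taken as all gene names that begin with Mrpl or Mrps, without pseudogene names, that stand in each of the 4 deposited tables. These were 78 of the 16514 genes listed, and 1 name that marks a pseudogene was left out. By the structure of the ribosome, 51 belong to the large subunit and 26 to the small subunit. Mrps30 and Mrps18a count among the large subunit proteins despite their names, and Mrps36 was placed in neither, since it is now known as a subunit of the 2-oxoglutarate dehydrogenase complex.

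The mitochondrial ribosome, or mitoribosome, translates the few messenger RNAs of the mitochondrial genome, all of which encode core subunits of the respiratory chain and the ATP synthase. Its ribosomal RNAs come from the mitochondrial genome, whereas its proteins are encoded in the nucleus, made in the cytosol and imported. The small subunit holds the messenger RNA and reads its codons, and the large subunit joins the amino acids and passes the chain out of a tunnel toward the inner membrane. Heart muscle is rich in mitochondria and depends on this translation.

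RNA was sequenced from hearts of male C57Bl/6J mice, 12 weeks old, in 4 groups of 3 libraries. Mice ate a diet with branched-chain amino acids (BCAA) at the level of standard chow (control) or a diet without BCAA (BCAA-free), and both diets held 1% propionate, so no group lacked it. The diets began 4 days before transverse aortic constriction (TAC), which narrows the aorta and loads the heart with pressure, or a sham operation, and continued until the hearts were taken 1 week later. Below, each group is named by its diet and its operation (for example BCAA-free TAC). Whether replicate libraries stem from different mice is not stated in the labels, so that a p-value reflects only how far these libraries spread.

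Libraries held 29929161 to 46101244 reads, and the lowest count of any of the 78 genes in any library was 45 reads. A set of 10 cardiomyocyte markers summed to 77332 to 93833 CPM (reads scaled to a common library total) in every library. In control TAC replicate 3, 6 hepatocyte markers summed to 230.6 CPM, against 0.632 to 1.75 CPM in the other 11 libraries. In control TAC replicate 2, the RNA polymerase III transcripts Rn7sk, Rmrp and Rpph1 summed to 122.2 CPM, against 1.59 to 26.3 CPM elsewhere. For this reason, calls and medians that use control TAC were recomputed with both libraries removed. Fibroblast markers (8 genes) summed to 775 to 832 CPM in control sham, 622 to 678 in BCAA-free sham, 1025 to 1842 in control TAC and 995 to 1843 CPM in BCAA-free TAC, where replicate 1 of each TAC group was highest (1842 and 1843 CPM). Macrophage markers (7 genes) summed to 236 to 247, 176 to 197, 249 to 409 and 313 to 398 CPM in the same order, again highest in replicate 1 of each TAC group. Endothelial markers (6 genes) summed to 807 to 1049, 716 to 841, 767 to 857 and 626 to 691 CPM. Their part in any result below was not tested. In whole hearts, fewer cells of a type and less RNA per cell cannot be told apart.

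Promoter sequence is shown for the 3 genes that passed the test in some comparison, Mrps2, Mrpl33 and Mrpl52, and for Mrpl12 as an example with a match to a known regulator's motif. The bases lie upstream of the start that RefSeq gives on build GRCm38.p6, stop before any exon that GENCODE M21 places there, and run 5′ to 3′ on the + strand, where all 4 genes lie. For Mrpl33 the RefSeq start lies inside the gene as GENCODE draws it, downstream of the gene's annotated 5′ end at 31596935. They span chr2:28467816-28468065 for Mrps2, chr5:31613701-31613938 for Mrpl33, chr14:54426659-54426908 for Mrpl52 and chr11:120484387-120484612 for Mrpl12. Capitals mark a match to the NRF1 motif.
Mrps2: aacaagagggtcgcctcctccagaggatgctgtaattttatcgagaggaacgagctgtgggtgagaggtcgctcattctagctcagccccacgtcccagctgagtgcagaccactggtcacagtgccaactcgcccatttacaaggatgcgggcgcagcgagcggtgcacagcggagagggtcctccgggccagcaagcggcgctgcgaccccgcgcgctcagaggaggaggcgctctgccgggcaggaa
Mrpl33: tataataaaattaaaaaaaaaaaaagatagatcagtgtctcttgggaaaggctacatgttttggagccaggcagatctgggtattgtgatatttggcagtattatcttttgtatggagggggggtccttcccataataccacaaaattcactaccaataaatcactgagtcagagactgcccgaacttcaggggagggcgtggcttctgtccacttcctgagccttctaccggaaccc
Mrpl52: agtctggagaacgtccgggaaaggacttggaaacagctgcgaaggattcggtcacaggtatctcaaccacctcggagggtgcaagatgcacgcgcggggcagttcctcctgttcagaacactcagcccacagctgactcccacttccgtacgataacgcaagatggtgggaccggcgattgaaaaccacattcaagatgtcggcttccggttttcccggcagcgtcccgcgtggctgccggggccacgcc
Mrpl12: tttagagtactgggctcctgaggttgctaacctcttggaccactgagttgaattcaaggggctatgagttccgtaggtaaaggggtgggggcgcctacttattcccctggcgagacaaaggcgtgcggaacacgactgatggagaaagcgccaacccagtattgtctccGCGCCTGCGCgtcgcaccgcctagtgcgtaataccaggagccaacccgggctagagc

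The factors NRF1, GABPA and YY1 are textbook regulators of nuclear genes for mitochondrial proteins. The motif searched for NRF1 was GCGCA and GCGC with any 1 base between them, that for GABPA CCGGAAGT and that for YY1 AAGATGGC, on both strands of windows from 250 bases before to 50 bases after the RefSeq start, each counted by itself even where matches overlapped. Of the 78 genes, 69 matched the RefSeq table, with 75 windows. The NRF1 motif stood in 17.3% of these windows, against 4.60% of all 32851 windows in the table, the GABPA motif in 16% against 3.89%, and the YY1 motif in 16% against 2.75%. At least 1 of the 3 motifs stood in 45.3% of the windows, against 10.4% of all windows, and 34 of the 69 genes had one. In Mrpl12 the NRF1 match began at position -81 from the start. Of the genes that passed a test, Mrpl33 and Mrpl52 had a GABPA match only downstream of the bases shown, and Mrps2 had no match to any of the 3. A match describes these letters and does not show binding.

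All 78 genes were expressed in every library, and as a set they took a nearly fixed share of the reads. Together they made up 4230 ± 72.1 CPM in control sham (SD, n = 3, as for the other groups), 4228 ± 80.3 in control TAC, 4190 ± 135 in BCAA-free sham and 4349 ± 151 CPM in BCAA-free TAC. Single libraries ranged from 4057 CPM (BCAA-free sham replicate 2) to 4518 CPM (BCAA-free TAC replicate 3), and the ranges of all 4 groups overlapped. Reads of large subunit genes were 2.51, 2.52, 2.56 and 2.54 times those of small subunit genes on average in the 4 groups, in the same order. The share of reads from 13 mitochondrially encoded transcripts moved more. It ran from 191490 to 202088 CPM in control sham and from 180817 to 196072 CPM in BCAA-free sham. In control TAC it was 163769 to 176118 CPM, and in BCAA-free TAC 162155 to 176417 CPM. These reads are part of the total that CPM is scaled to. An even share of the 78 genes therefore does not by itself show an unchanged level.

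**Figure D1:**
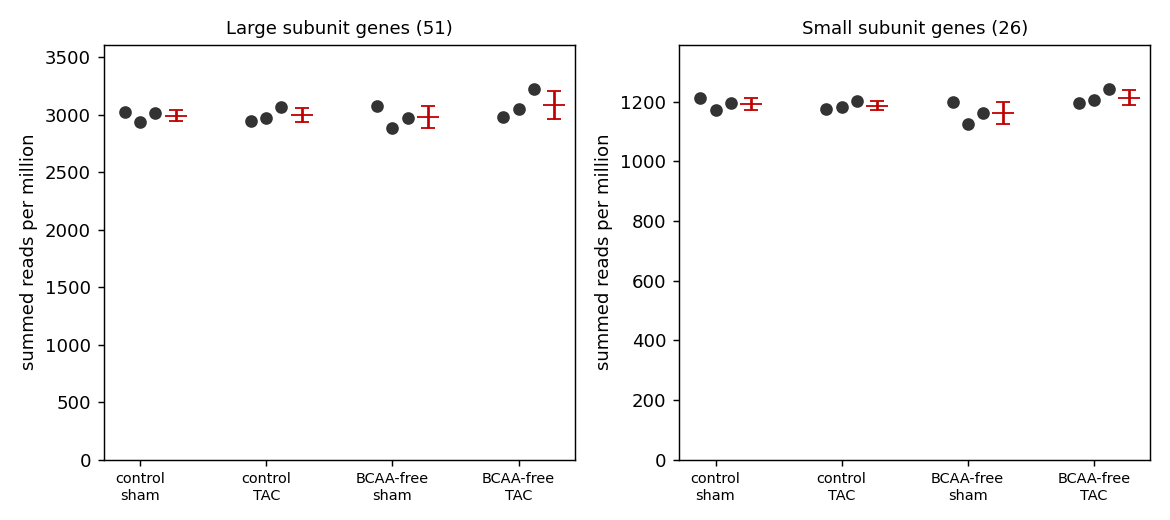
Summed CPM of 51 large subunit genes (left) and 26 small subunit genes (right) in each library (points) of 4 groups on the x axis, with the group mean and SD (red, n = 3). The groups overlap in both panels, with the highest point in BCAA-free TAC (3221 and 1242 CPM).

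Levels differed far more between genes than between libraries. Per kilobase of exon, the mean level over the 12 libraries ran from 2.26 to 123 RPKM, a 54.5-fold range, with a median of 19.2 and quartiles of 9.34 and 32.3 RPKM. The highest were Mrps21 (123 ± 11.8 RPKM, SD, n = 12), a counterpart of bacterial bS21, Mrpl12 (103 RPKM), which forms the flexible stalk that recruits translation factors and also binds the mitochondrial RNA polymerase, and Mrps23 (90.1 RPKM), a small subunit protein without a bacterial counterpart. The lowest were Mrpl53 (2.26 RPKM) and Mrps30 (3.47 RPKM), both mitochondria-specific large subunit proteins, and Mrps10 (2.80 RPKM), a small subunit protein with a bacterial counterpart. Large subunit genes had a median of 22.3 RPKM and small subunit genes of 12.8 RPKM.

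The order depends on the length used. Mrpl33 has 7326 bases of exon over all its annotated transcripts but a median transcript of 478 bases, and it ranked 61 of 78 per kilobase of exon (8.14 RPKM) and 4 per kilobase of median transcript (125 CPM per kilobase). On the transcript scale Mrpl42 (403), Mrps21 (204) and Mrpl30 (185) were highest, and Mrpl53 (2.57), Mrps25 (5.12) and Mrpl19 (5.57) lowest. Exons of 33 of the 78 genes share bases with another annotated gene, and over 50% of the exonic bases are shared in Mrpl53 (88.0%), Mrps34 (77.8%) and Mrps25 (69.8%). Whether reads were counted by strand is not given in the sources used here. Values of genes with shared bases are therefore uncertain, most so for these 3. More than 25% of the exonic bases is shared in 7 of the 78 genes and more than 10% in 18.

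**Figure D2:**
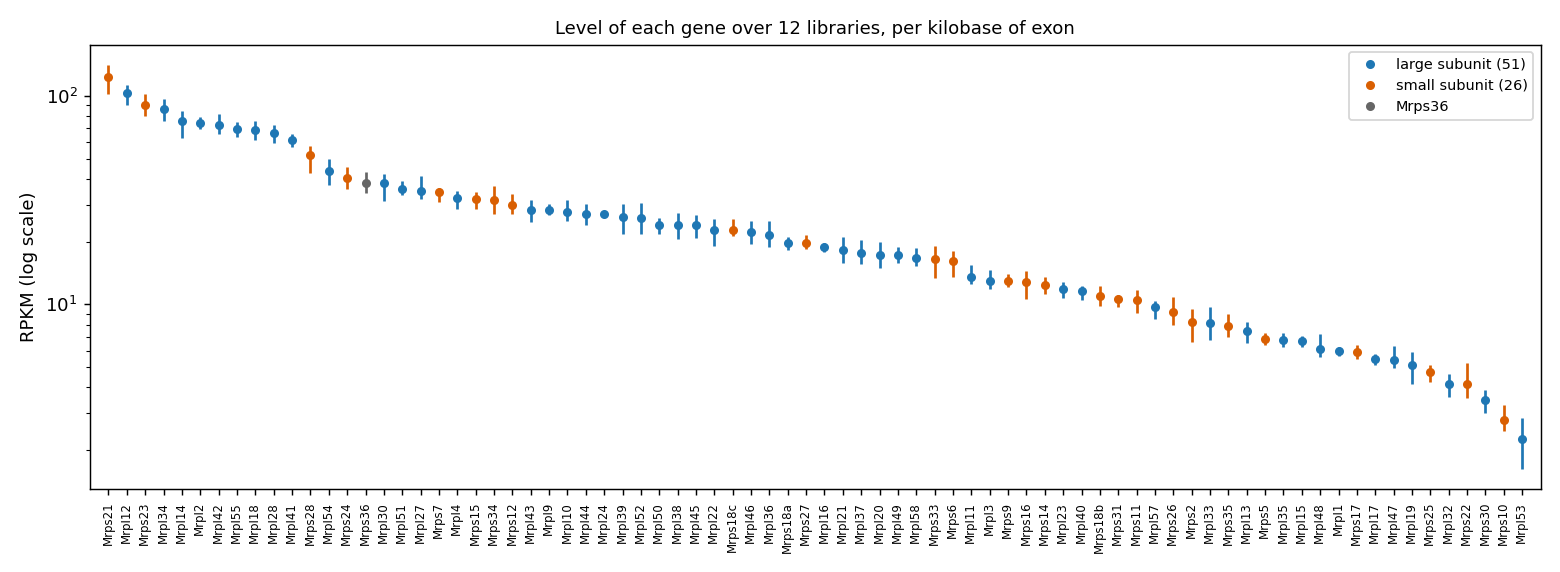
Mean level of each of the 78 genes over 12 libraries (points) and the range from the lowest to the highest library (lines), in RPKM on a log scale, ranked and coloured by subunit. The spread between genes, from 2.26 to 123 RPKM, is much wider than the lines, which exceed 1.5-fold in 1 gene, Mrpl53.

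Across the 12 libraries the median coefficient of variation was 6.76%. The steadiest gene was Mrpl24 at 2.32%, which encodes a protein near the peptide exit tunnel. Mrpl53, the gene with the fewest reads, varied most, by 18.4% (1.74-fold between its lowest and highest library), followed by Mrpl52 (12.5%), Mrpl33 (12.1%) and Mrps2 (11.2%). These ranks include any differences between the groups.

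Each of the 4 tables holds a pair of groups that differ in surgery or in diet alone, and each pair was tested in its own table. Values below are normalised reads, that is reads divided by the size factor the authors gave each library, so levels from different tables are not on the same scale. The medians of the 78 genes, and their counts above and below 0, depend on this scale, which is not the CPM share given above. A change is given as a log2 difference ± SE, and a gene was called at an adjusted p under 0.05 by limma over all genes tested. The comparisons share groups with each other, so their values are given side by side and not as separate evidence. All 78 genes passed the filter on low values in every comparison.

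After TAC on the control diet, 0 of the 78 genes passed the test, against a background of 5.34% of 15873 genes. At an unadjusted p under 0.05 there were 16 genes (20.5%, against 22.7% of all genes), 2 with higher and 14 with lower values. Among all genes, 1882 were higher and 1722 lower at that mark. In normalised reads, the median difference of the 78 was -0.08, against 0.00 for all genes tested, and 59 of 78 lay below 0. As a share of reads, the 78 genes summed to 4230 CPM in control sham and 4228 CPM in control TAC. The groups did not overlap in 4 genes that were higher and 16 that were lower, 5.13% and 20.5% of the 78, against 14.5% and 13.6% of all genes. Without both control TAC replicates 2 and 3 the median was -0.14, which rests on replicate 1, the control TAC library with the highest fibroblast and macrophage markers. It was -0.04 without control TAC replicate 1, -0.04 without control sham replicate 1 and -0.12 without control sham replicate 2. On the recovered reads, DESeq2 called 1 of the 78, Mrpl52 (9.97% of all genes), and edgeR called 0 (4.61%).

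Mrpl52, a mitochondria-specific protein of the large subunit (chr14:54426909-54429756, GRCm38), had the lowest difference. It read 1224, 1007 and 1060 normalised reads in control sham and 877, 857 and 854 in control TAC. Every control TAC library lay below every control sham library. The difference was -0.34 ± 0.09 (limma adjusted p = 0.0536; DESeq2 adjusted p = 0.0165), and -0.32 without both control TAC replicates 2 and 3 (adjusted p = 0.233). The authors' deposited table gives it an adjusted p of 0.0163, the only one of the 78 past 0.05 there (9.96% of all genes). Without control sham replicate 2 the limma adjusted p was 0.0499.

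Mrps33, a mitochondria-specific small subunit protein, followed at -0.26 ± 0.12 (limma adjusted p = 0.239), with overlapping groups (897 to 1163 in control sham and 747 to 983 in control TAC). It ranged from -0.36 to -0.17 with 1 library left out, and was closest to 0 without control TAC replicate 1. On the side of higher values, Mrpl53 stood at 0.22 ± 0.22 (limma adjusted p = 0.60), an SE as large as the difference, with values from 47.3 to 75.5 normalised reads. It ranged from 0.09 without control sham replicate 3 to 0.38 without control sham replicate 2. Mrps34, a mitochondria-specific protein of the small subunit, read 2176, 2304 and 2235 in control sham and 2545, 2566 and 2557 in control TAC. Its groups were apart, at 0.19 ± 0.06 (limma adjusted p = 0.0906). Most of its exonic bases are shared with Mapk8ip3 and Nme3.

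After TAC on the BCAA-free diet, 0 of the 78 genes passed, against 4.32% of 15936 genes. At an unadjusted p under 0.05 there were 12 (15.4%, against 21.4% of all genes), 11 with higher values and 1 lower. Among all genes, 1836 were higher and 1568 lower at that mark. The median difference was 0.06, against 0.00 for all genes, and 60 of 78 lay above 0. The groups were apart in 16 genes that were higher and 2 that were lower (20.5% and 2.56%, against 14% and 12.7%). The median was 0.01 without BCAA-free sham replicate 2. Of the 78, edgeR called 0 (4.19% of all genes), DESeq2 0 (7.72%) and none passed in the authors' deposited table (7.18%).

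Mrpl53 (0.28 ± 0.22) and Mrpl52 (0.25 ± 0.10) had the highest differences here, and Mrpl39 (-0.23 ± 0.09) and Mrpl47 (-0.17 ± 0.09) the lowest, with limma adjusted p in this order of 0.498, 0.18, 0.177 and 0.299. Mrpl39 is a mitochondria-specific protein related in sequence to threonyl-tRNA synthetase, and Mrpl47 is the counterpart of uL29 beside the exit tunnel. Mrpl39 read 2781, 2873 and 2961 in BCAA-free sham and 2115, 2653 and 2631 in BCAA-free TAC. These groups did not overlap, with BCAA-free TAC replicate 1 lowest, and without that library the difference was -0.12. That of Mrpl47 was -0.09 without BCAA-free sham replicate 3, and that of Mrpl53 ranged from 0.16 (without BCAA-free sham replicate 1) to 0.45 (without BCAA-free TAC replicate 3). Mrps34, named here after its values were seen, again stood higher, with 2240, 2099 and 2251 against 2675, 2602 and 2510 (0.24 ± 0.07, limma adjusted p = 0.0647).

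In sham hearts, 1 of the 78 genes fell on the BCAA-free diet, Mrps2, and none rose, against a background of 2.81% of 15596 genes in either direction and 1.76% that fell. At an unadjusted p under 0.05 there were 7 (8.97%, against 18.3% of all genes), 1 higher and 6 lower. Among all genes, 1306 were higher and 1541 lower at that mark. The median was -0.03, against 0.00 for all genes, and 0.01 without BCAA-free sham replicate 2. The groups were apart in 2 genes that were higher and 9 that were lower (2.56% and 11.5%, against 11.5% and 11.8%). Several marker sums were apart between these groups, with lower fibroblast and macrophage sums on the BCAA-free diet as given above. Dividing-cell markers summed to 4.26 to 13.6 CPM in control sham and 1.86 to 2.82 CPM in BCAA-free sham. T cell markers (5 genes) summed to 0.629 to 2.71 and 5.23 to 6.85 CPM, adipocyte markers (3 genes) to 6.62 to 6.88 and 11.1 to 21.3 CPM, and cardiomyocyte markers to 80204 to 81860 and 82901 to 85571 CPM. Their part in the diet differences was not tested.

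Mrps2 (chr2:28468066-28471178, GRCm38) encodes the counterpart of bacterial uS2 on the small subunit. It read 925, 889 and 877 normalised reads in control sham and 742, 705 and 731 in BCAA-free sham. All BCAA-free libraries lay below all control libraries, and Mrps2 fell by 19.0% (log2 -0.30 ± 0.07, limma adjusted p = 0.045). The call was lost after quantile normalization (adjusted p = 0.0633) and with any of 5 of the 6 libraries left out in turn (up to 0.161), and it stayed without control sham replicate 3 (0.033). Mrps2 was also the 1 gene of the 78 called by edgeR (2.98% of all genes), by DESeq2 (5.63%) and in the authors' deposited table (5.21%, with an adjusted p of 0.0261). In TAC hearts the diet difference of Mrps2 was -0.12 ± 0.12, with values of 926, 985 and 1079 in control TAC and 1029, 965 and 774 in BCAA-free TAC, which overlapped.

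Mrpl19, the counterpart of bL19, read 1078, 1049 and 933 in control sham and 889, 852 and 792 in BCAA-free sham (-0.27 ± 0.08, limma adjusted p = 0.101). It passed without control sham replicate 3 (0.0301). Its exonic bases are shared in part (36%) with Gcfc2 on the other strand. The highest differences were those of Mrpl39 (0.18 ± 0.06, adjusted p = 0.119) and Mrpl33 (0.13 ± 0.09, adjusted p = 0.505). That of Mrpl33 ranged from 0.05 without control sham replicate 2 to 0.23 without BCAA-free sham replicate 2.

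In TAC hearts, 2 of the 78 genes rose on the BCAA-free diet, Mrpl33 and Mrpl52, and none fell, against a background of 3.38% of 16222 genes in either direction and 1.27% that rose. At an unadjusted p under 0.05 there were 19, all with higher values (24.4%, against 19.9% of all genes in either direction). Among all genes, 1566 were higher and 1656 lower at that mark. The median in normalised reads was 0.09, against 0.00 for all genes, and 62 of 78 lay above 0. As a share of reads, the sums of the 78 overlapped, at 4167 to 4319 CPM in control TAC and 4226 to 4518 CPM in BCAA-free TAC. The groups were apart in 25 genes that were higher and 1 that was lower (32.1% and 1.28%, against 12.6% and 13%). Markers of dividing cells (4 genes) summed to 48.7 to 56.9 CPM in control TAC and 3.37 to 9.84 CPM in BCAA-free TAC, and cardiomyocyte markers to 77332 to 83109 and 83770 to 93833 CPM. Endothelial sums were also apart, at 767 to 857 and 626 to 691 CPM. The part of these markers in the differences was not tested.

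Mrpl33 (chr5:31596935-31664384, GRCm38) encodes the counterpart of bacterial bL33, a small protein of the large subunit. It read 2169, 1989 and 2226 normalised reads in control TAC and 2770, 2808 and 2843 in BCAA-free TAC. Every BCAA-free TAC library lay above every control TAC library. Mrpl33 rose 1.32-fold (log2 0.40 ± 0.07, limma adjusted p = 0.017), and in sham hearts it read 1946, 1655 and 2018 on the control diet and 2227, 1795 and 2140 on the BCAA-free diet, which overlapped.

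Mrpl52 read 976, 962 and 957 in control TAC and 1254, 1412 and 1270 in BCAA-free TAC. The groups were apart, and Mrpl52 rose 1.36-fold (0.44 ± 0.08, limma adjusted p = 0.018). In sham hearts its values overlapped, at 1168, 963 and 1011 on the control diet and 1087, 836 and 901 on the BCAA-free diet (-0.16 ± 0.10, adjusted p = 0.472).

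Both calls depended on which libraries were kept, while the differences moved less. With 1 library left out, the difference ranged from 0.35 to 0.43 for Mrpl33 and from 0.39 to 0.47 for Mrpl52. Without control TAC replicate 2 the adjusted p was 0.0935 for Mrpl33 and 0.0926 for Mrpl52, and without BCAA-free TAC replicate 2 it was 0.0800 and 0.0841. Mrpl52 did not pass without control TAC replicate 3 (0.0737), and Mrpl33 did not pass without BCAA-free TAC replicate 3 (0.0601). Without BCAA-free TAC replicate 1, 4 genes passed, these 2 with Mrps21 and Mrps24. Calls over all genes ranged from 138 to 1044 with 1 library left out, so this count cannot be set against the 3.38% of the main fit. Without both control TAC replicates 2 and 3 the differences were 0.37 and 0.42, 0 of the 78 genes and 0 of all genes passed, and the median of the 78 was 0.15.

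**Figure D3:**
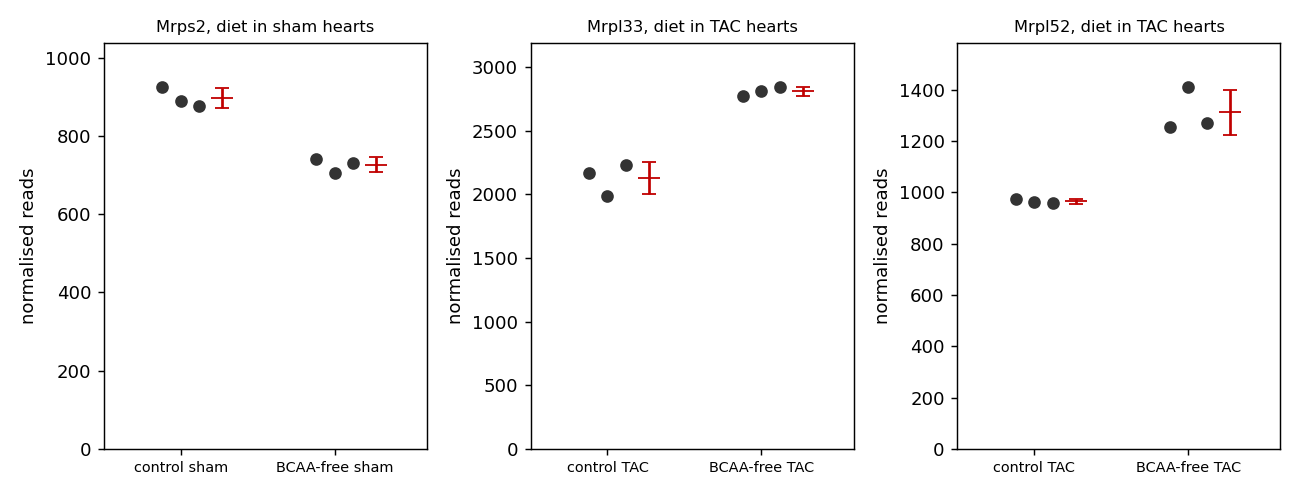
Normalised reads of Mrps2 in sham hearts and of Mrpl33 and Mrpl52 in TAC hearts, by diet, with each library as a point and the group mean and SD in red (n = 3). The groups do not overlap in any of the 3 panels, with Mrps2 lower and Mrpl33 and Mrpl52 higher on the BCAA-free diet.

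Another 4 genes lay close to the threshold, and are named after their values were seen. They were Mrps24 (0.31 ± 0.07, limma adjusted p = 0.0509), the counterpart of uS3 at the entry of the messenger RNA path, Mrps21 (0.37 ± 0.09, 0.0542), Mrps6, the counterpart of bS6 (0.31 ± 0.07, 0.0581), and Mrpl30, the counterpart of uL30 (0.34 ± 0.09, 0.0732). Mrps24 read 2060, 2174 and 2052 in control TAC and 2476, 2770 and 2555 in BCAA-free TAC, and the groups were apart in the other 3 genes as well. DESeq2 on the recovered reads called these 4 with Mrpl33 and Mrpl52, 6 in all (7.31% of all genes). The authors' deposited table calls the same 6 (7.8% of all genes), with adjusted p from 0.000279 (Mrpl33) to 0.0308 (Mrps6). By edgeR 2 were called, Mrpl33 and Mrpl52 (3.03% of all genes).

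At the low end, Mrpl19 stood at -0.14 ± 0.08 (limma adjusted p = 0.39, and -0.01 without both control TAC replicates 2 and 3) and Mrps2 at -0.12 ± 0.12 (0.618). Mrps2 had no stable sign, at 0.003 without BCAA-free TAC replicate 3.

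**Figure D4:**
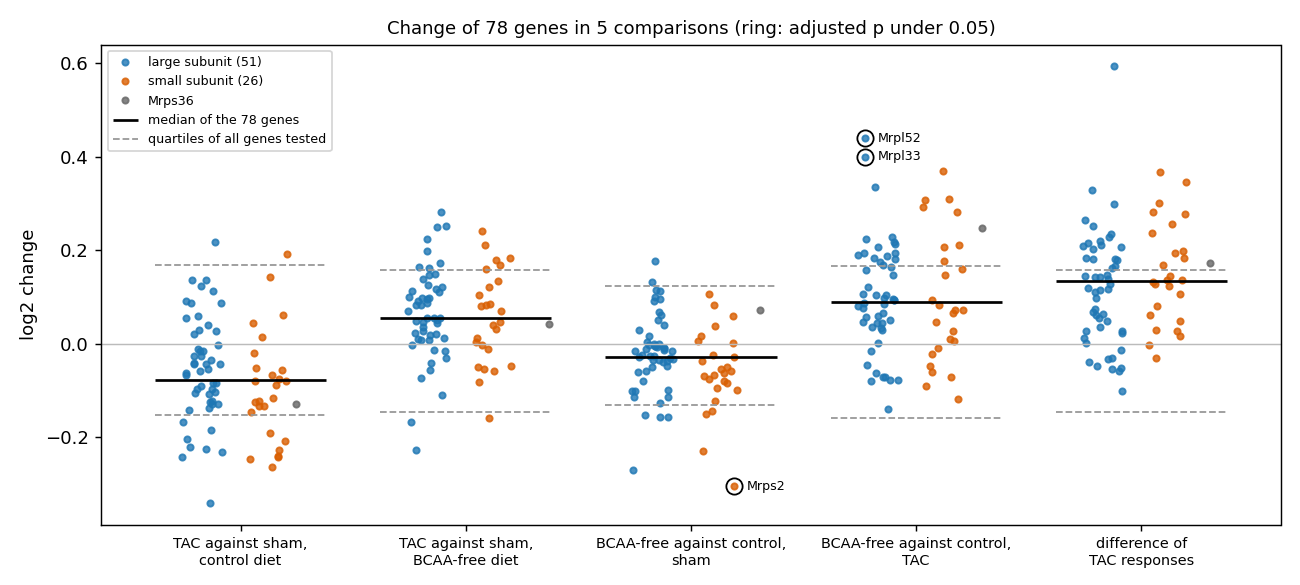
Log2 difference of each of the 78 genes in 5 comparisons (points, by subunit), with their median (black line), the quartiles of all genes tested (dashed) and rings on genes with an adjusted p under 0.05. The medians run from -0.08 after TAC on the control diet to 0.13 for the difference of the TAC responses, inside the quartiles of all genes in each comparison.

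The difference between the TAC responses on the BCAA-free and the control diet was tested directly. None of the 78 genes passed, against 0.0451% of 15524 genes (7 genes) in all, edgeR called 0 of the 78 (0.0322% of all genes) and DESeq2 called 1 (0.731%), Mrpl52 (adjusted p = 0.025). At an unadjusted p under 0.05 there were 13 (16.7%, against 10.1% of all genes in either direction). All 13 had a higher response on the BCAA-free diet, whereas among all genes 798 had a higher and 770 a lower response. The median was 0.13, against 0.00 for all genes, with 67 of 78 above 0.

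Mrpl52 had the highest value, 0.59 ± 0.14 (limma adjusted p = 0.168), being lower after TAC on the control diet and higher after TAC on the BCAA-free diet as given above. Mrps24 followed with 0.37 ± 0.10 (0.251). The lowest were Mrpl49 (-0.10 ± 0.10, and -0.05 without control TAC replicate 2 or without BCAA-free sham replicate 1), a mitochondria-specific large subunit protein, and Mrpl39 (-0.06 ± 0.11), with adjusted p of 0.816 and 0.914. The sign of Mrpl39 turned without BCAA-free TAC replicate 1 (0.05) and without both control TAC replicates 2 and 3 (0.006).

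The median deviation of the 78 genes varied between libraries of a group with a pooled SD of 0.06, against medians of -0.08 to 0.13 between groups. That SD is of single libraries, whereas the medians compare means of 3 libraries, so the values are not of like kind. In TAC hearts on the BCAA-free diet, replicates 1, 2 and 3 had 48, 57 and 66 of the 78 genes above the mean of control TAC. Control TAC replicate 1 had 70 of 78 below the mean of BCAA-free TAC, and replicates 2 and 3 had 56 and 54. BCAA-free sham replicate 2 had 70 of 78 below the mean of control sham, whereas its replicates 1 and 3 had 36 and 40.

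The intervals of the main fit give a range for each difference, gene by gene and without adjustment for their number. They hold on the scale of that fit and, like its p-values, reflect only how far these libraries spread. The 95% interval of the log2 difference lay within 0.5 of 0 for 74 of the 78 genes after TAC on the control diet, 77 after TAC on the BCAA-free diet, 78 for diet in sham hearts, 71 for diet in TAC hearts and 66 for the difference of the responses. It lay within 1 of 0, a change of less than 2-fold either way, for all 78 in each of the 5 comparisons.

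By subunit, large and small subunit genes had medians of the same sign in each comparison. These were -0.05 and -0.10 after TAC on the control diet, 0.06 and 0.06 after TAC on the BCAA-free diet, -0.02 and -0.06 for diet in sham hearts, 0.09 and 0.07 for diet in TAC hearts, and 0.12 and 0.14 for the difference of the responses. In TAC hearts, the 30 large subunit proteins with a bacterial counterpart had a median diet difference of 0.10 and the 21 mitochondria-specific ones of 0.08. For the small subunit these were 0.09 (16 genes) and 0.04 (10 genes).

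By place in the ribosome, in lists drawn up after values were seen, the factor-binding stalk is formed by Mrpl10, Mrpl11 and Mrpl12, with a median of -0.04 after TAC on the control diet and 0.12 on the BCAA-free diet. Mrpl2, Mrpl3, Mrpl16 and Mrpl27 lie on the side of the peptidyl transferase centre, where the peptide bond is made (-0.05 and 0.06). Mrpl22, Mrpl23, Mrpl24, Mrpl45 and Mrpl47 line or surround the exit tunnel (-0.03 and -0.01). Mrps2, Mrps5, Mrps7, Mrps11, Mrps12, Mrps21 and Mrps24 of the messenger RNA path and decoding region had -0.09 and 0.12. Mrps18a, Mrps18b and Mrps18c, 3 related proteins that occupy different places in the ribosome, had -0.07 and 0.07. None of these genes passed in either of the TAC comparisons, against 5.34% and 4.32% of all genes on the control and BCAA-free diet.

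In people, inherited changes in MRPL3, MRPL44, MRPS14 and MRPS22 cause disease of heart muscle, and the mouse genes are given here for that background. Mrpl44, which resembles ribonuclease III, read 1820, 1581 and 1657 in control sham and 1321, 1458 and 1561 in control TAC. These groups were apart (-0.22 ± 0.08, limma adjusted p = 0.158). On the BCAA-free diet its values overlapped, from 1718 to 1842 in sham and from 1642 to 1746 in TAC. Mrps22 read 764, 580 and 610 in control sham and 514, 537 and 594 in control TAC, which overlapped (-0.24 ± 0.12, adjusted p = 0.265). The TAC differences of Mrpl3 were -0.04 and 0.02 on the control and BCAA-free diet, and those of Mrps14 were 0.06 and 0.03. None of the 4 genes passed in any comparison, against 0.0451% to 5.34% of all genes.

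Transcript length moved with the diet difference in TAC hearts. The median transcript of the 78 genes was 1224.5 bases, against 2538.5 for all genes tested. Over other genes, the median difference fell from 0.18 for transcripts of 600 bases or shorter (698 genes) to 0.13, 0.11, 0.07, 0.03 and -0.04 for those up to 800, 1000, 1500 and 2500 bases and longer. The 78 genes had 0.38 (4 genes), 0.09 (17), 0.11 (9), 0.05 (19), 0.03 (13) and 0.10 (16) in the same classes. Across the 78 genes Spearman's rho of length and difference was -0.28, and across 16106 other genes -0.24; these points share their libraries, and genes are not independent replicates. Mrpl52 and Mrpl33 have median transcripts of 440.5 and 478 bases, in the shortest class. The rho for the 78 and for other genes was 0.10 and -0.001 after TAC on the control diet, -0.16 and -0.18 after TAC on the BCAA-free diet, -0.12 and -0.10 for diet in sham hearts, and -0.20 and -0.18 for the difference of the TAC responses, where the medians of other genes fell from 0.18 in the shortest class to -0.03 in the longest. Its part in the results was not tested.

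**Figure D5:**
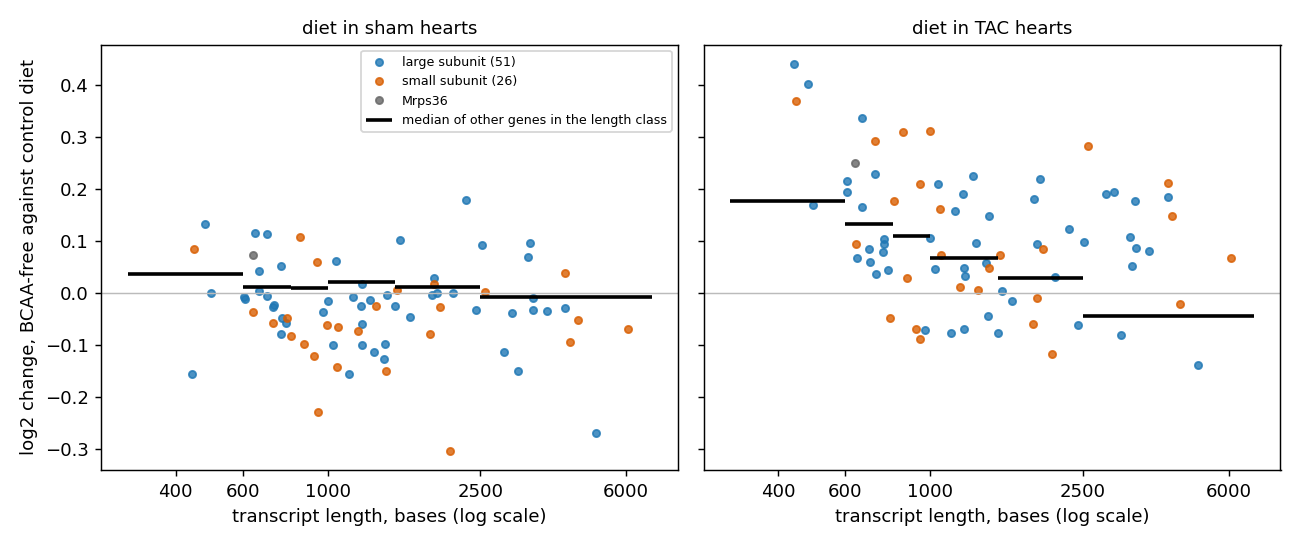
Log2 difference between the BCAA-free and control diet against median transcript length (log scale) for the 78 genes (points, by subunit) in sham (left) and TAC hearts (right), with the median of other genes in each length class (black bars). In TAC hearts the bars fall from 0.18 to -0.04 with length, and the 2 highest points, Mrpl52 and Mrpl33, lie in the shortest class.

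Other genes of mitochondrial translation were tested in the same fits. Mitoribosomal proteins under other names (Dap3, Ptcd3, Gadd45gip1, Chchd1 and Aurkaip1), 15 translation factors, 21 assembly and RNA modification factors, 8 genes of mitochondrial DNA transcription and replication and 9 nuclear regulators had 0 genes past the test in each of the 5 comparisons. Of all genes, 5.34%, 4.32%, 2.81%, 3.38% and 0.0451% passed in the comparisons as ordered above, so lists this short could hold none at the same rates. After TAC on the control diet their medians were -0.10, -0.06, -0.11, -0.17 and -0.08, and on the BCAA-free diet 0.03, -0.05, -0.03, -0.04 and -0.13. For diet in TAC hearts they were 0.13, -0.03, 0.04, 0.06 and 0.02. The translation release factor Mtrfr was not analysed here.

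Of 13 mitochondrially encoded messenger RNAs, which the mitoribosome translates, 1 rose after TAC on the control diet, against 5.34% of all genes in either direction. None passed in any other comparison, against 0.0451% to 4.32% of all genes. The 1 that rose was mt-Co3, a cytochrome c oxidase subunit. It read 853, 1037 and 1017 in control sham and 1208, 1260 and 1310 in control TAC (0.38 ± 0.09, limma adjusted p = 0.0411). It was far below mt-Nd5, which read from 411967 to 555938 in the same libraries, and it may share reads with near-identical nuclear copies, so its value is uncertain. The median of the 13 was -0.26 after TAC on the control diet, with 10 below 0, and -0.10 on the BCAA-free diet, with 12 below 0. The mitochondrial ribosomal RNAs were not analysed here.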

How the data were processed

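Hearts of 4 groups were sequenced, 3 libraries each, after Trizol extraction and selection of polyadenylated RNA, per the labels' protocols. The submitters' processing notes name the build GRCm38 (mm10) and, without roles, DESeq2, Subread 1.5.2, STAR 2.5.2b and Trimmomatic 0.36. The authors deposited 4 tables, whose library columns hold a signal: each gene's reads over a library's size factor, which differs from table to table, as the values show. Per the file headers, these tables also give the authors' own log2 fold changes with raw and adjusted p-values. Dividing by the value of 1 read gave whole reads for 100% of values (tolerance 0.001), and 0 genes had different reads in the 2 tables of a library. Reads carry no molecular identifiers, so depth is stated in reads only.

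Values were tested as log2(value + 4) in limma 3.58.1 (R 4.3.3, prior variance following intensity) where a gene's mean reached 10, two-sided, with Benjamini-Hochberg adjustment over all genes. The difference of TAC responses used the 12 columns of both TAC tables. Changes are on that log2 scale, which understates those of low genes. Alternatives were log2(value + 1), log2(value + 16), no filter, a mean of at least 50, quantile normalization, edgeR 4.0.16 and DESeq2 1.42.0 on recovered reads, a replicate block, each library left out, and control TAC replicates 2 and 3 both left out. The tests were also run on simulated data, with planted changes larger than those of Mrps2, Mrpl33 and Mrpl52. That run does not show how the tests perform at the sizes reported for these genes. RPKM used the recovered reads and GENCODE M21 exons, which held 16475 of the 16514 identifiers. The subunit and other gene lists, and the members, were chosen with earlier results of these data known. Named are genes past the test, the 2 highest and 2 lowest differences where fewer than 3 passed, and the 3 highest and 3 lowest levels.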

Additional observations from a re-analysis of the deposited data

How the results depend on the processing

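Counts of the 78 genes past the test and their medians were recomputed under each alternative, with the filter on low values applied to the libraries that remained. Under DESeq2 the counts were 1 after TAC on the control diet, 6 for diet in TAC hearts and 1 for the difference of the TAC responses. Quantile normalization gave 0 for diet in sham hearts and 3 for diet in TAC hearts, where it added Mrps21, and a mean of at least 50 also gave 3 there, adding Mrps24. When control TAC replicates 2 and 3 were dropped together, where the lone control TAC library is assumed to vary like the other groups, the count for diet in TAC hearts was 0, and the medians were -0.14 after TAC on the control diet, 0.15 for diet in TAC hearts and 0.19 for the difference. With each library left out in turn, the counts ranged from 0 to 1 (TAC, control diet), 0 to 0 (TAC, BCAA-free diet), 0 to 2 (diet, sham), 0 to 4 (diet, TAC) and 0 to 0 (difference), and the medians from -0.116 to -0.0408, 0.0113 to 0.0954, -0.0525 to 0.0104, 0.0648 to 0.125 and 0.103 to 0.162. In the difference, Mrpl39 ranged from -0.115 to 0.0481 with 1 library left out, turning without BCAA-free TAC replicate 1, and was 0.0057 with both control TAC libraries out. For diet in TAC hearts, Mrps2 ranged from -0.202 to 0.00265, turning without BCAA-free TAC replicate 3. The cause of these shifts was not tested.

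Same-numbered libraries deviated together in few cases (3 of 12 correlations over 0.1, from -0.0822 to 0.267). Of these, replicates 1 (0.267) and 3 (0.103) were in the diet comparison of TAC hearts. Different-numbered libraries of that comparison ran from -0.195 to 0.109. The labels do not tie the numbers across groups, and whether TAC libraries share structure by number was not settled. A replicate block gave 6 calls for diet in TAC hearts and left the other 4 counts of the 78 genes at their values.

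Over all genes, calls were 848, 688, 438, 548 and 7 in the 5 comparisons and 1544, 1159, 826, 1181 and 109 by DESeq2. With the replicate block they were 713 for diet in sham hearts, 1275 for diet in TAC hearts and 3 for the difference. With 1 library left out they ranged from 300 to 659, 106 to 1199, 68 to 1020, 138 to 1044 and 2 to 15. With both control TAC libraries out they were 0 for diet in TAC hearts and 1 for the difference, and the difference had 4 under log2(value + 1), a mean of at least 50 or quantile normalization. With 3 libraries a group, the median width of the 95% interval to either side over the 78 genes was 0.169, 0.168, 0.153, 0.179 and 0.229.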
